A study of Mus musculus with 12 samples.

Results

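RNA-Seq libraries of germinal vesicle (GV)-stage oocytes from D166G-Dpagt1 mutant females (MUT, n = 3) were compared with those from wild-type females (WT, n = 3). The comparison took in every transcript that reached at least 1 FPKM in at least 1 of these 6 libraries, which held for 10525 of the 24255 genes in the deposited table. FPKM counts the fragments mapped to a gene relative to its transcript length and to the size of the library. Of the 10525 transcripts, 8448 passed this minimum in both groups, 1186 only in MUT and 891 only in WT. Both groups were C57BL/6 females of 3 weeks that had received 5 IU of PMSG, a hormone that stimulates follicle growth, 46 h before collection, and each library was made from 20 oocytes. The mutation was induced by ENU, a chemical mutagen, and is carried by every cell of the body, so that oocytes and follicle cells of MUT females bear it alike. WT libraries are numbered 4 to 6 and MUT libraries 1 to 3, so that any batch tied to the numbering cannot be told apart from the genotype. Nothing in the labels says that the 3 libraries of a group came from separate females, so the spread between libraries may be technical. The p-values measure the spread within groups over all 12 libraries of the series, including oocytes of Dpagt1F/F Gdf9CRE/+ and Dpagt1F/F Amhr2CRE/+ females. Values of single libraries are given below in the order WT replicates 4, 5 and 6 and MUT replicates 1, 2 and 3.

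Dpagt1 encodes the enzyme that starts the assembly of N-linked glycans, by transferring N-acetylglucosamine phosphate onto dolichol phosphate at the endoplasmic reticulum (ER) membrane. The glycan is then built up on dolichol by the Alg enzymes, handed to nascent proteins by the oligosaccharyltransferase and trimmed in the ER and Golgi, while ER chaperones such as calnexin read it as a mark of protein folding. Cells in which folding fails can raise ER chaperones through the unfolded protein response and amino acid genes through the transcription factor ATF4. A full-grown GV oocyte, on the other hand, is largely silent in transcription and lives on mRNA stored during growth, so that the amount of a transcript reflects both its making and its keeping.

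The mutated base shows where the lesion lies in the gene. It is at chr9:44328161 of GRCm38, on the forward strand, as base 209 of exon 3 of the 9 exons of the coding transcript, and it falls in the coding part. Counted from the first base of the start codon, the substitution is A497G and turns codon 166 from GAC into GGC, the change D166G. The 61 coding bases around it are shown for the reference and for the mutant allele, with the codon in capitals. The mutant sequence was derived by applying the substitution to the reference transcript.
Dpagt1 reference: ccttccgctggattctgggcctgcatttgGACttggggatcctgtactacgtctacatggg
Dpagt1 D166G: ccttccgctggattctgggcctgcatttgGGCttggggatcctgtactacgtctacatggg

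Dpagt1 itself was hardly detected. The 3 WT libraries had it listed at 0 and the MUT libraries at 0.878, 0.408 and 0.985 FPKM, under the minimum of 1 FPKM, so that it is not among the 10525 transcripts. An exact two-sided permutation test of these 3 against 3 values gave p = 0.10, the smallest p the design allows, and the values say nothing of the point mutation, which leaves the transcript in place. Within 1 Mb of Dpagt1, 16 transcripts were measured and 5 were called, where 22.2% of all transcripts were. Of the 5, Arcn1, a COPI coat subunit, was at 26.5, 22.7 and 28.1 FPKM in WT and 51.2, 53.1 and 51.7 FPKM in MUT, and Vps11 was listed at 0 in every WT library but at 1.72, 0.683 and 1.65 FPKM in MUT. Rnf26 (log2 fold change 1.201) was not called when WT replicate 4 or 5 or MUT replicate 1, 2 or 3 was left out (limma adjusted p up to 0.0945). H2afx (0.92), with groups that overlapped, lost its call when WT replicate 4 or 6 or MUT replicate 2 or 3 was left out (limma adjusted p up to 0.157). Trappc4 was lower as deposited (-0.72), changed sign with the same sum (0.26) and was not called when WT replicate 5 or MUT replicate 2 or 3 was left out (limma adjusted p up to 0.0599).

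The libraries of the groups differed as a whole. FPKM values summed to between 1167362 and 1226005 in WT and to between 589617 and 611597 in MUT, and the 100 highest genes held 59.5 to 60.3% of the sum in WT and 48.0 to 48.9% in MUT. Genes above 0 numbered 9359 to 9622 in WT and 11208 to 11467 in MUT. The value of 1 fragment was estimated as the commonest ratio of low FPKM values to those of the same genes in MUT replicate 2. It was set to 1 in MUT replicate 2 and ranged over 2.29 to 2.67 for WT libraries and up to 1.21 for MUT libraries. Pearson correlations of log2(FPKM + 1) were 0.945 to 0.947 between WT libraries, 0.963 to 0.967 between MUT libraries and 0.923 to 0.935 between a WT and a MUT library. No library stood apart from its group. Because of the unequal sums, each change was computed as deposited, with every library scaled to the same FPKM sum, and after quantile normalization, which gives all libraries the same distribution of values. The median log2 fold change of the 10525 transcripts was 0.13 as deposited, 0.77 with the same sum and 0.05 after quantile normalization, so that each list below is read against these medians. Where values are given under the 3 scalings, they stand in this order. Some zeros may be failed estimates, which was not tested.

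Of the 10525 transcripts, 2332 differed between the genotypes (limma, Benjamini-Hochberg adjusted p under 0.05), or 22.2%. Of these, 1269 (12.1%) were lower and 1063 (10.1%) higher in MUT. The values of the groups did not overlap for 4114 transcripts, and for 2290 of the called ones. Counted over the transcripts that passed the minimum in both groups, 1239 were lower and 854 higher. A firmer set was called in the same direction under all 3 scalings, with 221 transcripts lower (2.10%) and 554 higher (5.26%), of which 209 and 469 passed the minimum in both groups. With the same sum alone, 251 were called lower and 4628 higher. This set therefore holds lower transcripts to a stricter bar than higher ones, and its counts in the 2 directions are not on equal terms. When each library was left out in turn, 829 of the 1269 lower calls and 355 of the 1063 higher calls held in all 6 fits. For the gene lists described below, the range of both counts over these 6 fits is given, with the libraries whose omission moved either count by over 1.5 times. The counts of each list are read against the shares of all transcripts called, 12.1% lower and 10.1% higher. In the firmer set, 212 lower and 336 higher calls held in all 6.

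Lower and higher transcripts differed in abundance and in length. The called lower transcripts had a median of 95.9 FPKM over the 6 libraries, and the called higher ones 5.80 FPKM. In the lowest of 5 equal groups by abundance 6 were lower and 102 higher, and in the highest group 965 were lower and 135 higher. The median log2 fold change was 0.24 in the lowest group, 0.36 in the middle group and -0.55 in the highest. With the same sum, these medians were 0.48, 1.11 and 0.44, and after quantile normalization the 5 medians lay between -0.04 and 0.13. Short transcripts were more often lower. In the shortest of 5 groups by length (median 1082 nt) 426 were called lower and 87 higher, and in the longest (median 6224 nt) 110 lower and 287 higher. In the firmer set, the lower transcripts had a median of 125.8 FPKM and the higher ones 11.6 FPKM. The part that depth and transcript length play in these trends was not tested.

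**Figure D1:**
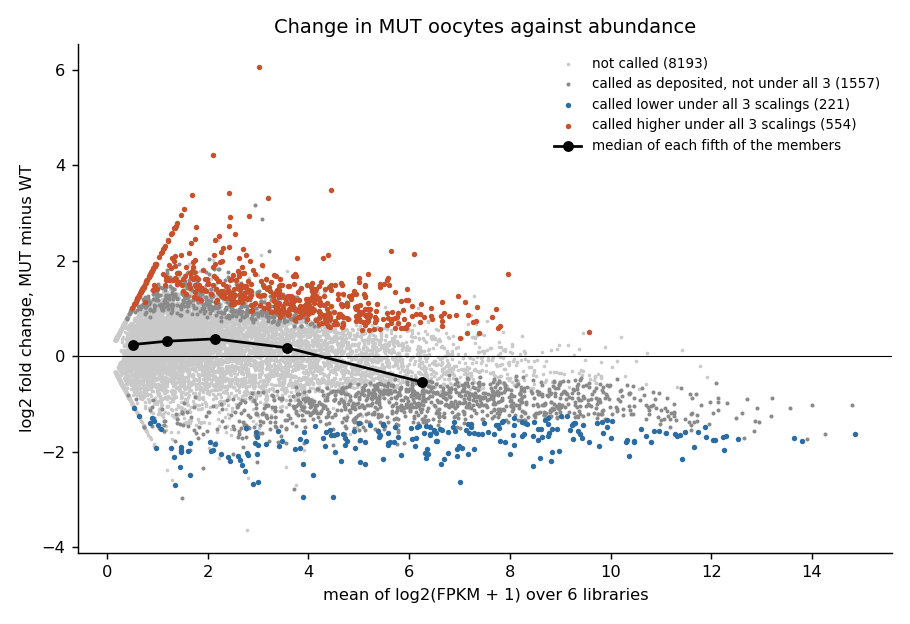
Log2 fold change of MUT against WT (y axis) against the mean of log2(FPKM + 1) over the 6 libraries (x axis), 1 point per transcript. The black line joins the medians of the 5 abundance groups and falls from 0.24 in the lowest to -0.55 in the highest. The 221 transcripts lower and the 554 higher under all 3 scalings are coloured.

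**Figure D2:**
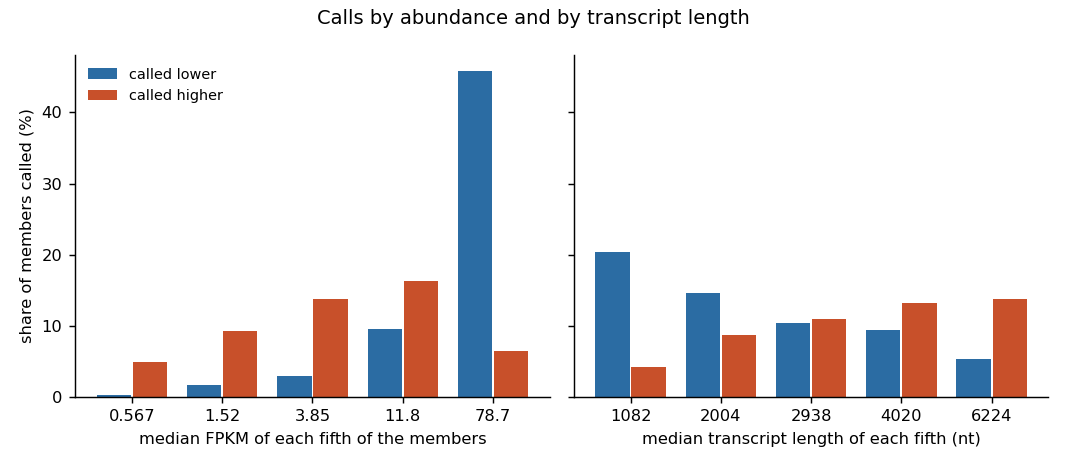
Share of transcripts called lower or higher in MUT (y axis, %) in 5 equal groups by abundance (left, labelled by median FPKM) and by transcript length (right, labelled by median length in nt). Calls of lower level reach 45.8% in the most abundant group and 20.4% in the shortest.

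The identity of the samples was checked with marker genes. All 15 oocyte markers were measured, and 7 were called lower and 1 higher (6 to 7 and 0 to 1 with 1 library left out, moved by WT 4, WT 5, MUT 2 and MUT 3). For these markers the median log2 fold changes under the 3 scalings were -0.65, 0.35 and 0.38. The lower calls were 46.7% of the list, which had a median level of 539 FPKM. In the most abundant of the 5 groups of all transcripts, 45.8% were called lower. Gdf9, a growth factor that oocytes secrete, was at 3404, 2934 and 3243 FPKM in WT and 1632, 2931 and 1746 FPKM in MUT. Of 29 granulosa and cumulus cell markers, 10 reached 1 FPKM, and Amh, Foxl2, Cyp11a1 and Inhbb were not among them. The number of these 29 markers listed at 0 was 23 in each WT library and 14 to 16 in the MUT libraries. Over all genes, 9359 to 9622 were above 0 in WT and 11208 to 11467 in MUT, and 1 fragment weighs more in WT. The summed level of the 29 markers was 260.7 to 297 FPKM in WT and 168 to 196 FPKM in MUT. Most of this sum was Esr2, an estrogen receptor, which was at 145, 151 and 152 FPKM in WT and 59.8, 39.4 and 45.2 FPKM in MUT, and Serpine2, at 131, 111 and 90.5 FPKM in WT and 104, 108 and 99.2 FPKM in MUT. Among the 10, 4 passed the minimum only in MUT and 2 only in WT. Of the 10, 1 was called lower and 4 higher (1 and 3 to 4 with 1 library left out), and the 4 higher ones were those that passed only in MUT. The 4 higher ones were listed at 0 in WT, namely Inha, the inhibin alpha subunit (limma adjusted p = 0.002603), Gja1, the connexin of granulosa cells (6.5e-04), Nap1l5 (0.00644) and Hsd17b1 (0.0118), the last not called when MUT replicate 3 was left out (limma adjusted p up to 0.05). Inha was at 5.44, 1.13 and 5.44 FPKM and Gja1 at 3.303, 2.35 and 4.26 FPKM in MUT. Cyp19a1, the aromatase of granulosa cells, was at 17.1, 20.1 and 15.1 FPKM in WT and 8.88, 9.49 and 13.4 FPKM in MUT and was not called (limma adjusted p = 0.185). Fshr was at 1.49, 0 and 0.723 FPKM in WT and 0.687, 0.318 and 0.769 FPKM in MUT. Of 21 markers of theca, stroma, vessel and blood cells, 3 reached 1 FPKM and 1 was called lower and 0 higher (limma, 0 at an unadjusted p under 0.05) (0 to 1 and 0 with 1 library left out, moved by WT 4, WT 5, MUT 1, MUT 2 and MUT 3). Dcn, at 5.11, 3.47 and 0.9902 FPKM in WT and 0.471, 0.438 and 0 FPKM in MUT, was called lower but not when WT replicate 4 or 5 or MUT replicate 1, 2 or 3 was left out (limma adjusted p up to 0.138). In these libraries fewer cells of a type and less RNA per cell cannot be told apart, and the part of adhering cells in any change was not tested. Of these markers, Esr2, Gja1 and Dcn were named by rule and the others were chosen after their values were seen.

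The 12 largest rises among named, non-overlapping transcripts of at least 5 FPKM under all 3 scalings were led by Fgf21, which encodes a secreted hormone of the fibroblast growth factor family. The gene lies at chr7:45613886-45615490 of GRCm38, and its transcript was listed at 0 in every WT library but at 73.6, 49.3 and 77.2 FPKM in MUT (limma adjusted p = 4.3e-06). The other 2 groups of the series, both with a floxed Dpagt1 allele, had 0 to 1.89 FPKM when Cre was driven in oocytes by Gdf9 and 0 FPKM when it was driven in granulosa cells by Amhr2. Eif4ebp1, which encodes an inhibitor of the cap-binding factor eIF4E, went from 2.19, 0 and 4.23 FPKM to 16.3, 16.3 and 24.1 FPKM, a log2 fold change of 2.94 ± 0.51 (SE, limma adjusted p = 0.00139). In neither did the groups overlap, as the rule for naming required.

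Wbp5, Bex4 and Tmsb4x, all on the X chromosome, were among these rises. Wbp5, a member of the Tceal family, was at 6.26, 2.36 and 0 FPKM in WT and 36.7, 14.5 and 39.3 FPKM in MUT and had a log2 fold change of 3.31 ± 0.55 (SE, limma adjusted p = 0.00107). Bex4, of the related brain-expressed X-linked family, was at 0, 3.43 and 0 FPKM in WT and 31.1, 8.07 and 17.7 FPKM in MUT. Tmsb4x, the actin monomer-binding thymosin beta 4, was listed at 0 in every WT library but at 1.81, 12.2 and 28.97 FPKM in MUT. The MUT values of both spread widely. Bex4 was not called when WT replicate 4 or 6 or MUT replicate 1 or 3 was left out (limma adjusted p up to 0.0594). Of 6 Bex and Tceal transcripts measured, 3 passed the minimum only in MUT and 0 only in WT, so that the direction of those 3 was largely set by the minimum. Of the 6, 0 were called lower (limma, 0 at an unadjusted p under 0.05) and 3 higher, or 50% against 10.1% of all transcripts (0 and 1 to 2 with 1 library left out, moved by WT 4, WT 6 and MUT 3). The 3 called were higher under all 3 scalings. The remaining one, Ngfrap1, was listed at 0 in every WT library but at 6.97, 2.197 and 2.63 FPKM in MUT and was not called when WT replicate 4, 5 or 6 or MUT replicate 1, 2 or 3 was left out (limma adjusted p up to 0.122).

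Replication-dependent histones package newly made DNA. Hist1h4d was at 14.9, 16.7 and 0 FPKM in WT and 76.8, 97.5 and 50.6 FPKM in MUT, and was not called when MUT replicate 1 or 2 was left out (limma adjusted p up to 0.0629). Hist1h3h and Hist3h2ba were listed at 0 in all WT libraries and at 6.703, 3.35 and 7.81 FPKM and 3.796, 3.83 and 13.3 FPKM in MUT, and without MUT replicate 3 their limma adjusted p were 0.0594 and 0.0828. Hist1h2bg, by contrast, fell from 479, 575 and 600.2 FPKM to 222, 208 and 119 FPKM under all 3 scalings, and Hist1h2bc went from 1386 to 594 FPKM as means (log2 fold change -1.21 as deposited, -0.22 with the same sum and -0.35 after quantile normalization). Over the family, 53 transcripts were measured, 17 of them past the minimum only in MUT, and 6 were called lower and 8 higher, or 11.3% and 15.1% (6 to 7 and 4 to 5 with 1 library left out, moved by each of the 6), 2 and 5 of them under all 3 scalings. These shares lie near the 12.1% and 10.1% of all transcripts. All 6 lower ones encode H2A or H2B, and the 8 higher ones encode H1, H2B, H3 or H4. Histone copies are close to identical in sequence, so the share of reads given to each is uncertain.

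The remaining rises were Fam173a (7.94, 5.76 and 8.84 FPKM in MUT) and Tmem265 (5.31, 7.101 and 4.27 FPKM), both listed at 0 in WT, and Smim1 and Fkbp3. Smim1, a small membrane protein, was at 0, 0 and 0.0012 FPKM in WT and 10.7, 5.52 and 5.04 FPKM in MUT. Fkbp3, a nuclear prolyl isomerase, was at 0.0535, 1.25 and 0 FPKM in WT and 7.098, 10.5 and 6.14 FPKM in MUT. Across all 10525 transcripts, 181 were listed at 0 in the 3 WT libraries and above 0 in all MUT libraries, 9 of them with a MUT mean of at least 5 FPKM. The reverse was seen for 5 transcripts, 1 of them with a WT mean of at least 5 FPKM. A single fragment weighs more in WT, which limits how low a level these libraries could show.

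**Figure D3:**
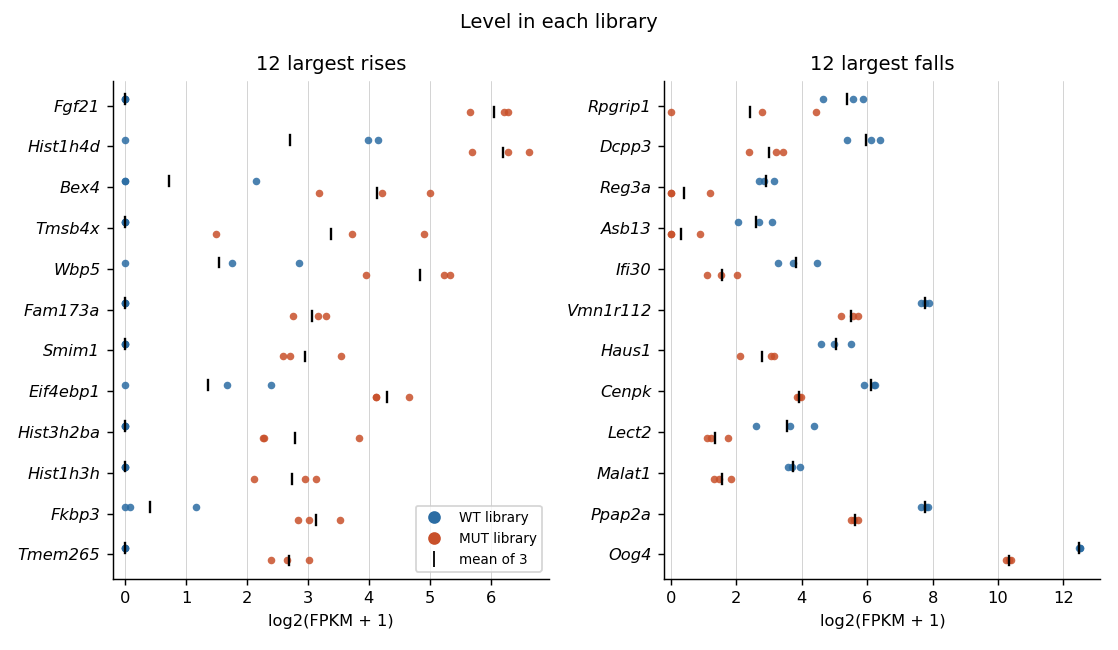
Level of the 12 largest rises (left) and the 12 largest falls (right) as log2(FPKM + 1) in each WT (blue) and MUT (orange) library, with the mean of 3 as a black bar. These 24 transcripts were chosen for groups that do not overlap. Fgf21 is at 0 in every WT library, and Rpgrip1 runs from 0.0045 to 20.8 FPKM in MUT.

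The largest falls, chosen by the same rule, covered low and very abundant transcripts. Rpgrip1, which encodes a protein of the photoreceptor cilium, was at 24.4, 57.7 and 46.5 FPKM in WT and 0.0045, 5.898 and 20.8 FPKM in MUT, and the MUT values spread widely. Its log2 fold change was -2.96 ± 0.77 (SE, limma adjusted p = 0.0156), but the call was lost when WT replicate 5 or 6 or MUT replicate 2 was left out (limma adjusted p up to 0.0774). Oog4, of an oocyte-specific gene family, was at 5822, 5646 and 5805 FPKM in WT and 1218, 1347 and 1303 FPKM in MUT, a log2 fold change of -2.16 ± 0.25 (SE, limma adjusted p = 1.2e-04) with tight replicates in both groups. Ppap2a, a phospholipid phosphatase, was at 200.2, 224 and 233 FPKM in WT and 47.7, 51.95 and 44.6 FPKM in MUT, with the smallest adjusted p of these falls (3.9e-05). The other abundant ones were Vmn1r112, annotated as a vomeronasal receptor, at 218, 235 and 198 FPKM in WT and 36.02, 46.1 and 51.3 FPKM in MUT, and Dcpp3. Dcpp3, a secreted salivary protein, was at 68.3, 41.1 and 82.5 FPKM in WT and 4.25, 8.25 and 9.76 FPKM in MUT. Both belong to families of similar genes, in which reads can be shared.

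A pair of division genes stood among the falls. Cenpk, a subunit of the inner kinetochore, was at 73.5, 75.2 and 59.5 FPKM in WT and 13.97, 14.7 and 13.5 FPKM in MUT. Haus1, a subunit of the augmin complex that nucleates spindle microtubules, was at 23.2, 30.97 and 44.7 FPKM in WT and 7.81, 7.35 and 3.31 FPKM in MUT. Their log2 fold changes were -2.22 (limma adjusted p = 1.8e-04) and -2.27 (limma adjusted p = 0.00434). Malat1, a nuclear non-coding RNA, fell from 11.9, 10.8 and 14.3 FPKM to 1.502, 2.57 and 1.796 FPKM. The low ones were Ifi30, a lysosomal thiol reductase (-2.28), Lect2, a secreted chemotactic protein (-2.19), Asb13, of a ubiquitin ligase adaptor family (-2.32), and Reg3a, an antimicrobial lectin (-2.502). Reg3a was not called when WT replicate 6 or MUT replicate 2 or 3 was left out (limma adjusted p up to 0.0828).

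Many transcripts of ATF4 and its target genes were higher in MUT. Of 36 genes on this list 30 were measured, 9 of them past the minimum only in MUT, and 14 (46.7%) were called higher and 1 lower. Among all transcripts 10.1% were called higher. With 1 library left out, 8 to 11 were called higher, and the count moved by over 1.5 times without WT 5, MUT 2 or MUT 3. Of the 14, 4 were listed at 0 in WT. Under all 3 scalings, 9 were higher and 0 lower. For the list the median log2 fold changes under the 3 scalings were 0.90, 1.5 and 0.80, and it was 0.78 as deposited over the 24 genes with no group at 0. Atf4 itself, at chr15:80255184-80257541 of GRCm38, was at 15.9, 33.02 and 20.5 FPKM in WT and 96.2, 102 and 122 FPKM in MUT, a log2 fold change of 2.21 ± 0.32 (SE, limma adjusted p = 4.1e-04). In this list, Atf4, Nupr1, Chac1, Mthfd2, Cth, Ddit3 and the 5 genes called higher as deposited but not under all scalings were chosen after their values were seen.

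Besides Fgf21, members with different roles rose. Asns, asparagine synthetase, was listed at 0 in every WT library but at 3.89, 6.02 and 4.85 FPKM in MUT (limma adjusted p = 1.8e-04). Slc3a2, the heavy chain of several amino acid transporters, was at 24.4, 13.03 and 15.8 FPKM in WT and 45.9, 62.95 and 58.3 FPKM in MUT, a log2 fold change of 1.63 ± 0.26 (SE, limma adjusted p = 8.5e-04). Of the tRNA synthetases, Aars was at 0.452, 0.511 and 1.32 FPKM in WT and 4.99, 4.61 and 4.65 FPKM in MUT and had a log2 fold change of 1.74 (limma adjusted p = 0.00335). Nars, from 10.7 to 20.7 FPKM as means, was not called when WT replicate 6 or MUT replicate 1, 2 or 3 was left out (limma adjusted p up to 0.0711). Nupr1, a stress-induced nuclear protein, was listed at 0 in every WT library but at 2.04, 1.97 and 4.67 FPKM in MUT. Chac1, which breaks down glutathione, was at 0, 1.36 and 0 FPKM in WT and 2.22, 4.13 and 6.23 FPKM in MUT, and was not called when MUT replicate 3 was left out (limma adjusted p up to 0.0506). Mthfd2, of mitochondrial folate metabolism, went from 49.3 to 78.6 FPKM and was not called when WT replicate 5 or MUT replicate 2 was left out (limma adjusted p up to 0.0638). The 5 called higher as deposited but not under all scalings were Psat1, Phgdh, Cebpg, Aldh18a1 and Gars, and each lost its call in at least 1 of the fits without a library. Cth, which makes cysteine, was the 1 member called lower, from 53.3 to 28.96 FPKM (log2 fold change -0.85 as deposited, 0.12 with the same sum and -0.59 after quantile normalization). Ddit3, which encodes the ER stress factor CHOP, was at 316, 353 and 501 FPKM in WT and 382, 387 and 319 FPKM in MUT, and did not pass the test (limma adjusted p = 0.852).

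The promoters of these genes were searched for TGATGNAA, a core of the element that ATF4 binds together with C/EBP factors, on both strands of the 250 bases before each RefSeq start (GRCm38.p6). It was present for 1056 of 27025 genes (3.91%) and for 235 of the 7996 transcripts here that had a promoter sequence (2.94%). In the ATF4 list it was present for 8 of 25 genes with a sequence, for 6 of the 13 called higher and for 2 of the 12 others. The list was compiled from known ATF4 targets, in many of which such elements had been found, so that this count is a description. Among all transcripts called higher the element was present for 29 of 826 (3.51%), and among those called lower for 24 of 944 (2.54%). The promoters of the 5 genes that were higher under all 3 scalings and hold the element are given, with the element in capitals, to show where it lies in each.
Fgf21, chr7:45615491-45615740, reverse strand: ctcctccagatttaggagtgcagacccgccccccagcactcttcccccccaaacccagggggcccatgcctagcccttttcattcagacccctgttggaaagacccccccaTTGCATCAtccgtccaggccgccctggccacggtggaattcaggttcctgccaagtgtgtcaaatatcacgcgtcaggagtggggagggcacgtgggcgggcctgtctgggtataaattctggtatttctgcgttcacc
Asns, chr6:7693210-7693459, reverse strand: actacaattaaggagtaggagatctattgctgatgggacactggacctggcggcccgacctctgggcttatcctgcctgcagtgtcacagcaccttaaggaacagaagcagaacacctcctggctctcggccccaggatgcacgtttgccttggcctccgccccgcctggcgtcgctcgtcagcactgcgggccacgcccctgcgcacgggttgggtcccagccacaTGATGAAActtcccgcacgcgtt
Chac1, chr2:119350992-119351241, forward strand: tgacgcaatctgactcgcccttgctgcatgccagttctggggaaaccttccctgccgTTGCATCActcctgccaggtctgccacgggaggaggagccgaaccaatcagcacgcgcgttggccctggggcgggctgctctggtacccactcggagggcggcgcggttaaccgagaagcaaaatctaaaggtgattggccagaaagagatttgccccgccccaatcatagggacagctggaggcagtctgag
Nupr1, chr7:126625471-126625720, reverse strand: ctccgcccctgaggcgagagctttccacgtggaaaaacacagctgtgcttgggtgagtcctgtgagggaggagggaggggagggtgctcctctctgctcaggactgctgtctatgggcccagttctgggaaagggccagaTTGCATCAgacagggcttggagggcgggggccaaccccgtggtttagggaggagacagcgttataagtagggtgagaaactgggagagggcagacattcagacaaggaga
Aars, chr8:111033592-111033841, forward strand: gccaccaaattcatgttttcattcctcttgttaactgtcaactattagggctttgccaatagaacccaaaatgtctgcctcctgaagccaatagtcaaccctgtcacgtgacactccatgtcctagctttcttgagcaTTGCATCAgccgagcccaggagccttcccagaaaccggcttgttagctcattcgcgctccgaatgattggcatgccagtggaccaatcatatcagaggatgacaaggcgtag

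The first base of the element lies 139 bases before the start of Fgf21, 23 before that of Asns, 193 before that of Chac1, 110 before that of Nupr1 and 112 before that of Aars. It reads in the direction of the gene in Asns and in the opposite direction in the other 4. No match was found in the same window of Atf4, Slc3a2 and Mthfd2, which says only that these letters are not there.

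ER chaperones and the genes of ER-associated degradation, the removal of misfolded proteins from the ER, were called higher for 17.6% of transcripts, against 10.1% of all. The list had a median level of 8.12 FPKM. In the middle abundance group (median 3.85 FPKM) 13.8% of transcripts were called higher, and in the next higher group (median 11.8 FPKM) 16.25%. The share of the list lies near that of transcripts of like abundance. Of 34 transcripts measured, 1 was called lower and 6 higher (1 and 4 to 8 with 1 library left out), 1 and 5 of them under all 3 scalings, and the median log2 fold changes under the 3 scalings were 0.53, 1.23 and 0.37. P4hb, a protein disulfide isomerase, was at 5.499, 3.89 and 7.33 FPKM in WT and 15.8, 21.4 and 14.5 FPKM in MUT, a log2 fold change of 1.49 ± 0.25 (SE, limma adjusted p = 0.00112). Dnajb11 and Dnajc3, co-chaperones of the ER, had log2 fold changes of 1.505 (limma adjusted p = 0.004998) and 1.08 (limma adjusted p = 0.00737). Herpud1, of the degradation complex, was listed at 0 in every WT library but at 1.35, 0.833 and 2.01 FPKM in MUT. Pdia4 was called (1.46) but not when WT replicate 4 or 6 or MUT replicate 1, 2 or 3 was left out (limma adjusted p up to 0.0859). The ER chaperones Hspa5 (BiP) and Hsp90b1 did not pass the test. Hspa5 was at 28.9, 35.9 and 45.5 FPKM in WT and 31.7, 46.1 and 34.8 FPKM in MUT. Hsp90b1 was at 38.1, 23.3 and 22.4 FPKM in WT and 30.8, 28.5 and 25.7 FPKM in MUT. For Hspa5 the 95% interval of the log2 fold change ran from -0.38 to 0.46. Canx, which encodes calnexin, the lectin chaperone that binds glycoproteins by their N-glycan, fell from 400.4, 382 and 338 FPKM to 158, 141 and 129 FPKM, a log2 fold change of -1.39 ± 0.16 (SE, limma adjusted p = 1.1e-04). The fall of Canx was called under all 3 scalings (-0.39 with the same sum, -0.72 after quantile normalization). Of these, Dnajb11, Dnajc3, Pdia4, Herpud1, Hspa5 and Hsp90b1 were chosen after their values were seen.

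**Figure D4:**
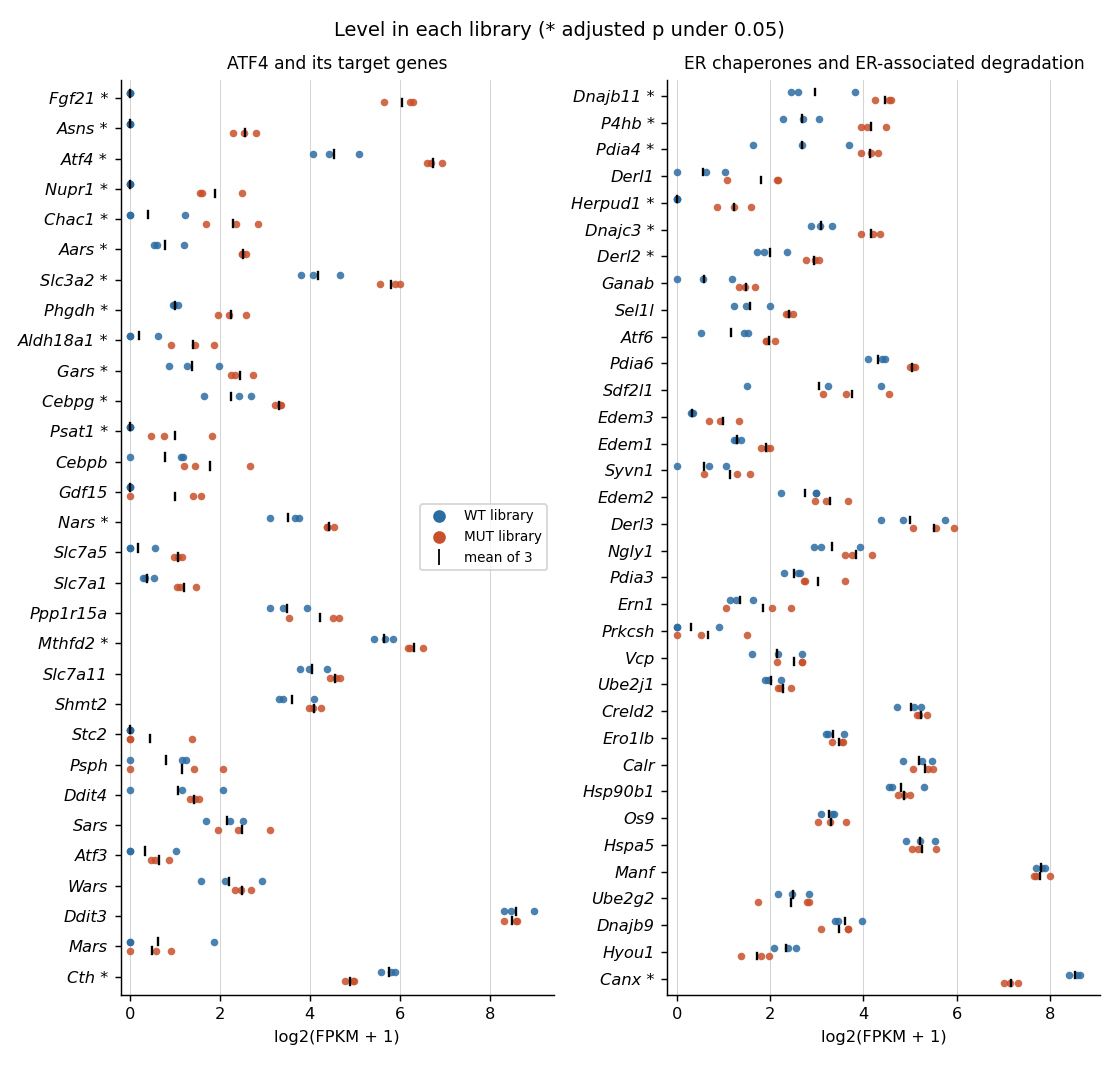
Level of ATF4 and its targets (left, 30 transcripts) and of ER chaperones and ER-associated degradation genes (right, 34 transcripts) as log2(FPKM + 1) in each WT (blue) and MUT (orange) library, with the mean of 3 as a black bar and a star for adjusted p under 0.05. Transcripts are ordered by log2 fold change, with Fgf21 and Dnajb11 at the top and Cth and Canx, both lower in MUT, at the bottom.

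The pathway that Dpagt1 opens had shares of calls near those of all transcripts (12.1% lower and 10.1% higher). Of 25 transcripts of dolichol-linked glycan synthesis measured, 4 were called lower and 2 higher, or 16% and 8% (3 to 4 and 1 to 3 with 1 library left out, moved by MUT 2 and MUT 3), 0 and 1 of them under all 3 scalings, and the median log2 fold changes under the 3 scalings were 0.01, 0.86 and -0.17. Alg13, whose product works with Alg14 in the step after Dpagt1, was at 159, 166 and 147 FPKM in WT and 81.7, 70.1 and 77.7 FPKM in MUT, a log2 fold change of -1.03 ± 0.17 (SE, limma adjusted p = 8.1e-04) that became -0.04 with the same sum and -0.50 after quantile normalization. Alg10b, the enzyme of the last glucose, rose from 4.53, 3.58 and 0.879 FPKM to 9.79, 10.2 and 13.5 FPKM. Among 12 oligosaccharyltransferase subunits, 2 were called lower and 2 higher (1 to 2 and 0 to 2 with 1 library left out, moved by each of the 6). Dad1, a core subunit, fell under all 3 scalings, from 1446, 1739.5 and 1835 FPKM to 694, 651 and 605 FPKM. Rpn1 (1.39, 0.524 and 1.799 FPKM in WT and 3.196, 4.52 and 5.002 FPKM in MUT) was not called after quantile normalization nor when WT replicate 4 or 5 or MUT replicate 1, 2 or 3 was left out (limma adjusted p up to 0.1105). Of 29 Golgi glycan-processing transcripts, 2 were called lower and 0 higher (limma, 4 at an unadjusted p under 0.05) (2 to 3 and 0 to 1 with 1 library left out, moved by WT 4, WT 6 and MUT 3). The lower ones, under all 3 scalings, were B4galt4, a galactosyltransferase, at 978, 901 and 859 FPKM in WT and 237, 234 and 209.6 FPKM in MUT, and C1galt1c1. C1galt1c1, the chaperone of the enzyme that extends O-glycans, was at 161, 163 and 155 FPKM in WT and 40.3, 40.2 and 41.3 FPKM in MUT. These falls had log2 fold changes of -2.003 (limma adjusted p = 9.7e-05) and -1.95 (limma adjusted p = 1.2e-04). For that list the median log2 fold changes under the 3 scalings were 0.32, 0.93 and 0.09.

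Of 26 COPI, COPII and p24 transcripts, 1 was called lower and 7 higher (1 to 2 and 2 to 7 with 1 library left out, moved by WT 4, WT 5, MUT 1, MUT 2 and MUT 3), 0 and 3 of them under all 3 scalings, and the median log2 fold changes under the 3 scalings were 0.51, 1.11 and 0.37. Besides Arcn1, Tmed2, a p24 cargo receptor, was at 23.8, 23.8 and 17.8 FPKM in WT and 54.5, 47.4 and 59.2 FPKM in MUT, a log2 fold change of 1.27 (limma adjusted p = 0.00633). Of 21 transcripts for import into the ER, 5 were called lower and 2 higher (2 to 5 and 0 to 1 with 1 library left out, moved by each of the 6). Sec11a, the catalytic subunit of the signal peptidase, fell under all 3 scalings, from 668, 711 and 755 FPKM to 279, 291 and 229.9 FPKM. Sec61g, a small subunit of the translocon, had a log2 fold change of -1.295 as deposited, -0.32 with the same sum and -0.96 after quantile normalization. For GPI anchors, the glycolipids that tether proteins to the membrane, 19 transcripts were measured and 2 were called lower and 3 higher (2 and 0 to 2 with 1 library left out, moved by WT 6, MUT 1, MUT 2 and MUT 3). Pigf was at 341 ± 23.2 FPKM in WT against 159 ± 23.5 FPKM in MUT (mean ± SD, n = 3 each). Its log2 fold change was -1.11 as deposited, -0.11 with the same sum and -0.44 after quantile normalization, and it was called only as deposited among these. Pigq, from 1.35 to 6.05 FPKM, was not called when WT replicate 6 or MUT replicate 2 or 3 was left out (limma adjusted p up to 0.0707).

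Zona pellucida glycoproteins form the coat of the egg and are heavily N-glycosylated. Of 15 transcripts of the zona and of factors that the oocyte secretes, 6 were called lower and 1 higher (5 to 6 and 0 to 1 with 1 library left out, moved by WT 6, MUT 2 and MUT 3), and the median log2 fold changes under the 3 scalings were -0.52, 0.48 and 0.12, so that the sign of this median depended on the scaling. Zp2 was at 191, 163 and 172 FPKM in WT and 88.5, 90.96 and 67.2 FPKM in MUT, a log2 fold change of -1.09 ± 0.20 (SE, limma adjusted p = 0.00215) that shrank to -0.10 with the same sum and was -0.55 after quantile normalization. Lower calls made up 40% of the list, which had a median level of 129 FPKM. In the most abundant of the 5 groups of all transcripts, 45.8% were called lower. No lower call in this list held under all 3 scalings. Gja4, the connexin of the gap junctions between oocyte and granulosa cells, was higher under all of them, at 97.2, 114 and 71.7 FPKM in WT and 166, 244 and 208 FPKM in MUT, but not called when WT replicate 6 or MUT replicate 2 or 3 was left out (limma adjusted p up to 0.0614). Bmp15, a growth factor of the oocyte, was at 1527 ± 264 FPKM in WT against 1404 ± 148 FPKM in MUT (mean ± SD, n = 3 each) and did not pass the test as deposited (limma adjusted p = 0.706). Its log2 fold change was -0.11 as deposited, 0.88 with the same sum and 0.94 after quantile normalization. Bmp15 was chosen after its values were seen.

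Maternal-effect genes, whose products carry the first divisions of the embryo, are often stored in the oocyte. Of 36 measured, 8 were called lower and 7 higher, or 22.2% and 19.4% (6 to 8 and 2 to 6 with 1 library left out, moved by WT 4, WT 5, MUT 1, MUT 2 and MUT 3), 1 and 4 of them under all 3 scalings, and the median log2 fold changes under the 3 scalings were 0.14, 1.08 and 0.44. Npm2, a histone chaperone of the oocyte nucleus, fell from 666, 630.1 and 720.0 FPKM to 228, 237 and 232 FPKM, a log2 fold change of -1.53 ± 0.18 (SE, limma adjusted p = 1.2e-04), and was the 1 that was lower under all scalings. Dppa3, which protects maternal methylation, was at 27299, 26356 and 30143 FPKM in WT and 8755, 7935 and 8574 FPKM in MUT, and its log2 fold change of -1.73 became -0.73 with the same sum and -0.22 after quantile normalization, where it was not called. Trim28 and Tet3, chosen after their values were seen, rose under all 3 scalings. Trim28, a co-repressor at imprinted loci, was at 1.05, 1.78 and 1.02 FPKM in WT and 6.27, 8.24 and 7.28 FPKM in MUT. Tet3, which oxidises methylated cytosine, was at 31.2, 29.8 and 23.5 FPKM in WT and 77.9, 81.6 and 81.2 FPKM in MUT. The log2 fold changes were 1.87 (limma adjusted p = 0.00126) and 1.49 (limma adjusted p = 4.2e-04).

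For storage and clearance of maternal mRNA, 38 transcripts were measured and 6 were called lower and 11 higher (3 to 6 and 5 to 8 with 1 library left out, moved by WT 4, WT 6, MUT 1, MUT 2 and MUT 3), 1 and 7 of them under all 3 scalings. The list had a median log2 fold change of 0.41, 1.35 and 0.44 under the 3 scalings. Paip1, which stimulates translation through poly(A)-binding protein, fell from 1604, 1371 and 1317 FPKM to 456, 393 and 385 FPKM, a log2 fold change of -1.796 ± 0.17 (SE, limma adjusted p = 6.2e-05). Several deadenylation and decapping genes rose, namely Pan2 (1.57, limma adjusted p = 0.00408), Cnot8 (1.204, limma adjusted p = 0.00335) and Dcp1a (1.27, limma adjusted p = 9.1e-04), which were chosen after their values were seen. Dazl, an RNA-binding protein of germ cells, was at 446, 451 and 497 FPKM in WT and 224, 183 and 214 FPKM in MUT, and was not called with the same sum (-0.17) or after quantile normalization (-0.40). Of 51 translation initiation factors, 10 were called lower and 8 higher (6 to 9 and 3 to 9 with 1 library left out, moved by WT 6, MUT 1 and MUT 3), 0 and 5 of them under all 3 scalings. Eif4e, the cap-binding factor, was at 873 ± 70.5 FPKM in WT against 386 ± 7.33 FPKM in MUT (mean ± SD, n = 3 each), and its log2 fold change was -1.17 as deposited and -0.18 with the same sum. Eif2b1, of the exchange factor for eIF2, had -1.27 as deposited and -0.28 with the same sum. Of 25 aminoacyl-tRNA synthetases, 0 were called lower (limma, 0 at an unadjusted p under 0.05) and 4 higher (0 and 1 to 3 with 1 library left out, moved by MUT 1, MUT 2 and MUT 3), and the median was 0.48, 1.08 and 0.27 under the 3 scalings.

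Kinetochore and checkpoint genes hold chromosomes on the spindle. Of 49 transcripts measured, 13 were called lower and 4 higher, or 26.5% and 8.16% (10 to 12 and 2 to 4 with 1 library left out, moved by WT 6, MUT 1, MUT 2 and MUT 3), 4 and 2 of them under all 3 scalings, while the median log2 fold changes under the 3 scalings were -0.06, 0.85 and 0.01. Among all transcripts 12.1% were called lower and 10.1% higher. The list had a median level of 22.1 FPKM. In the most abundant of the 5 groups of all transcripts (median 78.7 FPKM) 45.8% were called lower, and in the group below it (median 11.8 FPKM) 9.55%. The lower share of the list lies between these. Cenpq, another subunit of the inner kinetochore, fell with Cenpk, from 495, 507 and 558 FPKM to 141, 143 and 142 FPKM, a log2 fold change of -1.86 ± 0.23 (SE, limma adjusted p = 1.5e-04). Mad2l1, the checkpoint protein Mad2, and Spc25, of the outer kinetochore, fell under all 3 scalings as well, by log2 fold changes of -1.396 (limma adjusted p = 3.7e-04) and -1.26 (limma adjusted p = 2.4e-04). In the other direction, Incenp, the scaffold of the passenger complex, and Ttk, the checkpoint kinase Mps1, rose, by log2 fold changes of 1.61 (limma adjusted p = 0.00182) and 0.91 (limma adjusted p = 0.00665). Mad2l1, Spc25, Incenp and Ttk were chosen after their values were seen. Of 39 spindle and kinesin transcripts, 5 were called lower and 6 higher (4 to 5 and 3 to 6 with 1 library left out, moved by MUT 1). Nek2, a centrosomal kinase, rose from 2.13, 1.81 and 2.07 FPKM to 11.8, 13.6 and 14.3 FPKM. Haus3, a partner of Haus1, was at 2031, 1821 and 1785 FPKM in WT and 844, 712 and 822 FPKM in MUT (log2 fold change -1.25 as deposited, -0.25 with the same sum and -0.31 after quantile normalization).

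Among regulators of meiotic maturation, 38 transcripts were measured and 4 were called lower and 10 higher (4 and 2 to 10 with 1 library left out, moved by WT 5, WT 6, MUT 1, MUT 2 and MUT 3), 0 and 5 of them under all 3 scalings. Cks2, a CDK1-binding protein needed for the first meiotic division, was at 2949.8, 2837 and 3392 FPKM in WT and 1298, 1209 and 1265 FPKM in MUT. Arpp19, whose phosphorylated form inhibits the phosphatase PP2A, was at 223, 195 and 212 FPKM in WT and 112, 92.4 and 95.2 FPKM in MUT. Both log2 fold changes, -1.28 and -1.07 as deposited, shrank to -0.28 and -0.08 with the same sum. Of 15 subunits and partners of the anaphase-promoting complex, 4 were called lower and 5 higher (4 and 1 to 4 with 1 library left out, moved by WT 5, MUT 2 and MUT 3). The small subunits Anapc16 (-1.1, limma adjusted p = 4.4e-04) and Anapc11 (-1.24, limma adjusted p = 5.0e-04) were lower as deposited, and Anapc2 (1.35, limma adjusted p = 0.00794), chosen after its values were seen, was higher under all 3 scalings. Among 18 cohesin and securin-separase transcripts, 2 were called lower and 3 higher (2 to 3 and 0 to 2 with 1 library left out, moved by WT 5, WT 6, MUT 1, MUT 2 and MUT 3), and none of these 5 held under all 3 scalings. Pttg1, which encodes securin, was at 984, 932 and 896 FPKM in WT and 418, 443 and 489 FPKM in MUT. Esco2, the cohesin acetyltransferase of replicated chromatin, was at 679, 637 and 676 FPKM in WT and 304, 311 and 323 FPKM in MUT. Neither was called under the other scalings.

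Lists of housekeeping proteins had low medians as deposited. The proteasome and oxidative phosphorylation lists had median levels of 40.1 and 79.6 FPKM. In the most abundant of the 5 groups of all transcripts (median 78.7 FPKM), 45.8% were called lower and the median log2 fold change was -0.55. After a loess correction on abundance, the medians of the proteasome and oxidative phosphorylation lists were -0.275 and -0.07. Of 41 proteasome subunits, 18 were called lower and 3 higher, or 43.9% and 7.32% (16 to 17 and 1 to 3 with 1 library left out, moved by WT 5, MUT 2 and MUT 3), 4 and 2 of them under all 3 scalings, and the median log2 fold changes under the 3 scalings were -0.61, 0.22 and -0.23. Psmb1 and Psma7, of the catalytic core, both fell under all 3 scalings. Psmb1 went from 590.5, 617 and 716 FPKM to 221, 215 and 223 FPKM, and Psma7 from 352, 359.6 and 357 FPKM to 131, 120.2 and 143 FPKM. Psme3, the nuclear activator of the core, rose, with a log2 fold change of 2.06 (limma adjusted p = 3.4e-04), and was chosen after its values were seen. Of 76 oxidative phosphorylation subunits, 27 were called lower and 4 higher, or 35.5% and 5.26% (19 to 26 and 4 with 1 library left out), 1 and 4 of them under all 3 scalings, and the median log2 fold changes under the 3 scalings were -0.51, 0.47 and -0.05. Cox7a2l, an assembly factor of respiratory supercomplexes, fell from 942, 1032 and 1004 FPKM to 398, 347 and 369 FPKM. Atp5b, the catalytic beta subunit of ATP synthase, rose from 13.5, 12.03 and 12.2 FPKM to 36.6, 37.3 and 30.01 FPKM, a log2 fold change of 1.39 ± 0.19 (SE, limma adjusted p = 3.2e-04).

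Lower calls made up 27.3% of cytosolic and 27.6% of mitochondrial ribosomal protein transcripts, and few of them held under all scalings. These lists had median levels of 40.8 and 59.2 FPKM. For the mitochondrial import and the Sm and Lsm lists below, the lower shares were 38.1% and 41.7% and the median levels 62.1 and 51.8 FPKM. All these shares lie below the 45.8% of the most abundant of the 5 groups of all transcripts. Of 66 cytosolic ones, 18 were called lower and 3 higher (10 to 17 and 1 to 2 with 1 library left out, moved by WT 4, WT 6, MUT 2 and MUT 3), 1 and 3 of them under all 3 scalings, with a median of -0.24, 0.64 and -0.06 under the 3 scalings. Of 76 mitochondrial ones, 21 were called lower and 3 higher (15 to 19 and 0 to 3 with 1 library left out, moved by MUT 2 and MUT 3), 1 and 2 of them under all 3 scalings, with a median of -0.27, 0.67 and 0.04 under the 3 scalings. Rpl35 had a log2 fold change of -1.28 (limma adjusted p = 1.2e-04) as deposited and -0.29 with the same sum. Mrpl35 fell under all 3 scalings, at 343, 339 and 361 FPKM in WT and 143, 122 and 116 FPKM in MUT. Mrpl42 was at 89.6, 74.8 and 119 FPKM in WT and 25.4, 38.4 and 31.1 FPKM in MUT. Of 21 mitochondrial import transcripts, 8 were called lower and 2 higher (5 to 6 and 0 to 1 with 1 library left out, moved by each of the 6), and 0 held under all 3 scalings. Timm17a, a channel subunit of the inner membrane, was at 3279 ± 59.9 FPKM in WT against 1294 ± 54.9 FPKM in MUT (mean ± SD, n = 3 each). Tomm6, of the outer membrane (-1.09 as deposited), was not called when MUT replicate 2 was left out (limma adjusted p up to 0.05904). Of 24 spliceosomal Sm and Lsm transcripts, 10 were called lower and 0 higher (limma, 2 at an unadjusted p under 0.05) (8 to 9 and 0 with 1 library left out), none of them under all 3 scalings, with a median of -0.50, 0.47 and -0.06 under the 3 scalings. Lsm10, of the U7 particle that cuts histone mRNA, was at 3658, 3584 and 3679.7 FPKM in WT and 1564, 1524 and 1327 FPKM in MUT. Lsm6 had a log2 fold change of -1.22 (limma adjusted p = 0.00111). Of 32 ubiquitin-conjugating enzymes, 6 were called lower and 2 higher (6 to 7 and 0 to 1 with 1 library left out, moved by each of the 6). Ube2d3 was at 2174, 1973 and 2060.5 FPKM in WT and 789, 956 and 924 FPKM in MUT. Ube2c, the partner of the anaphase-promoting complex, was at 383, 350.2 and 379.9 FPKM in WT and 171, 204 and 164 FPKM in MUT. Neither Ube2d3 nor Ube2c was called under all 3 scalings.

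Lists of chromatin and DNA genes are set beside 12.1% lower and 10.1% higher calls among all transcripts. Of 46 transcripts of DNA methylation and heterochromatin, 5 were called lower and 11 higher, or 10.9% and 23.9% (3 to 4 and 3 to 6 with 1 library left out, moved by each of the 6), 2 and 5 of them under all 3 scalings. Pcgf6, a subunit of a Polycomb complex, fell from 493, 478 and 454 FPKM to 162, 143 and 149 FPKM, a log2 fold change of -1.64 ± 0.18 (SE, limma adjusted p = 1.1e-04). Of 39 replication genes, 7 were called lower and 7 higher, or 17.9% and 17.9% (5 to 7 and 3 to 6 with 1 library left out, moved by WT 4, MUT 1, MUT 2 and MUT 3). Gmnn, which encodes geminin, was at 331 ± 32.97 FPKM in WT against 148 ± 14.9 FPKM in MUT (mean ± SD, n = 3 each). Gins1 was at 168 ± 15.8 FPKM in WT against 81.5 ± 18.5 FPKM in MUT (mean ± SD, n = 3 each). Neither Gmnn nor Gins1 was called under the other scalings. Of 38 repair genes, 3 were called lower and 4 higher, or 7.89% and 10.5% (2 and 2 to 6 with 1 library left out, moved by WT 5). Brca2 was at 10.7, 5.799 and 7.83 FPKM in WT and 17.8, 18.4 and 20.8 FPKM in MUT, higher under all 3 scalings. Of 20 transcripts of the piRNA pathway, 2 were called lower and 3 higher (2 to 4 and 0 to 3 with 1 library left out, moved by WT 4, WT 5, MUT 1, MUT 2 and MUT 3). Tdrd1, a Tudor protein, was at 12.5, 23.3 and 27.8 FPKM in WT and 37.1, 37.5 and 30.8 FPKM in MUT and was not called when WT replicate 4 or 5 or MUT replicate 1, 2 or 3 was left out (limma adjusted p up to 0.116). Tdrd7, listed at 0 in every WT library but at 0.423, 1.17 and 1.66 FPKM in MUT, was not called when MUT replicate 2 or 3 was left out (limma adjusted p up to 0.0574). Of 212 Zfp zinc finger transcripts, 30 were called lower and 23 higher, or 14.2% and 10.8% (24 to 31 and 11 to 19 with 1 library left out, moved by MUT 1, MUT 2 and MUT 3), 7 and 9 of them under all 3 scalings. Zfp280b rose from 7.48, 11.2 and 7.599 FPKM to 36.9, 41.1 and 38.96 FPKM, and Zfp433 fell from 100.5, 101 and 90.2 FPKM to 29.1, 30.1 and 29.3 FPKM.

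Of 23 transcription factors of germ cells and oocytes, 5 were called lower and 3 higher (4 to 6 and 0 to 3 with 1 library left out, moved by WT 4, MUT 2 and MUT 3), 2 and 1 of them under all 3 scalings. Obox5 and Obox2, of an oocyte-specific homeobox family whose copies resemble each other, were the 2, and Obox5 was at 24055, 21842 and 23858 FPKM in WT and 7699.6, 6937 and 6599 FPKM in MUT. Max, the partner of Myc, went from 4.57, 4.14 and 10.6 FPKM to 14.3, 15.3 and 16.5 FPKM and was not called when WT replicate 4 or 5 or MUT replicate 2 or 3 was left out (limma adjusted p up to 0.0616). Of 14 transcripts for sperm-egg interaction and egg activation, 2 were called lower and 3 higher (2 to 3 and 2 to 3 with 1 library left out), 1 and 3 of them under all 3 scalings. Rgs2, which damps G protein signals, fell from 2342, 2298 and 2461 FPKM to 684, 700.0 and 655 FPKM, a log2 fold change of -1.799 ± 0.19 (SE, limma adjusted p = 1.1e-04). Atp2a2, the calcium pump SERCA2 of the ER, rose from 21.3, 26.2 and 31.3 FPKM to 74.6, 78.1 and 98.9 FPKM, a log2 fold change of 1.64 ± 0.25 (SE, limma adjusted p = 5.4e-04).

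Of 41 cytosolic chaperones, 13 were called lower and 3 higher (8 to 10 and 2 to 4 with 1 library left out, moved by MUT 1), 2 and 2 of them under all 3 scalings. Ptges3, the Hsp90 co-chaperone p23, fell from 807, 807 and 717 FPKM to 246, 282 and 275 FPKM, and Pfdn4, a prefoldin subunit, was at 5420.2 ± 549 FPKM in WT against 2106 ± 75.1 FPKM in MUT (mean ± SD, n = 3 each). Of 32 redox genes, 8 were called lower and 2 higher (6 to 8 and 1 to 2 with 1 library left out, moved by WT 6 and MUT 1). Prdx1, a peroxiredoxin, was at 2656, 2451 and 2842 FPKM in WT and 914, 874 and 958 FPKM in MUT, lower under all 3 scalings. Glrx, glutaredoxin, had a log2 fold change of -1.33 as deposited and -0.08 after quantile normalization. Of 38 autophagy and lysosome transcripts, 1 was called lower and 7 higher (1 to 2 and 4 to 6 with 1 library left out, moved by WT 6 and MUT 2), 0 and 5 of them under all 3 scalings, with a median of 0.45, 1.12 and 0.33 under the 3 scalings. Lamp1, a lysosomal membrane glycoprotein, rose from 23.6, 25.8 and 22.1 FPKM to 47.04, 60.3 and 51.9 FPKM, and Tfe3, a regulator of lysosome genes, from 1.19, 3.37 and 2.89 FPKM to 10.2, 9.13 and 15.04 FPKM. Among 28 apoptosis transcripts, 3 were called lower and 0 higher (limma, 3 at an unadjusted p under 0.05) (3 and 0 to 2 with 1 library left out, moved by WT 4 and WT 6), and 0 held under all 3 scalings. Casp8 was at 69.9, 80.7 and 79.1 FPKM in WT and 29.2, 29.5 and 27.8 FPKM in MUT, and Cycs, cytochrome c, was at 201 ± 14.9 FPKM in WT against 95.4 ± 6.68 FPKM in MUT (mean ± SD, n = 3 each).

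In energy metabolism, 34 transcripts of glycolysis and the TCA cycle were measured and 4 were called lower and 5 higher (2 to 5 and 1 to 4 with 1 library left out, moved by each of the 6), 0 and 2 of them under all 3 scalings. Cs, citrate synthase, rose from 14.02, 11.7 and 8.87 FPKM to 26.7, 35.03 and 34.5 FPKM. Ldha, lactate dehydrogenase A, was listed at 0 in every WT library but at 1.16, 3.25 and 3.27 FPKM in MUT, and was not called when MUT replicate 2 or 3 was left out (limma adjusted p up to 0.0665). Cholesterol and isoprenoid genes, which also supply dolichol, gave 18 measured transcripts, of which 3 were called lower and 1 higher (2 to 3 and 1 with 1 library left out). Scap, the sterol-sensing escort of SREBP, rose under all 3 scalings, at 0.805, 0 and 1.95 FPKM in WT and 4.999, 4.61 and 5.38 FPKM in MUT. Of 149 solute carriers, 6 were called lower and 10 higher (4 to 8 and 4 to 9 with 1 library left out, moved by WT 6, MUT 1 and MUT 3). Slc25a17, a peroxisomal carrier, fell from 590.5, 597 and 524 FPKM to 248, 229 and 186 FPKM.

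Of 18 tubulins, 0 were called lower (limma, 2 at an unadjusted p under 0.05) and 1 higher (0 to 2 and 1 with 1 library left out, moved by MUT 2). The 1 called was Tubb3, at 39.8, 41.3 and 31.2 FPKM in WT and 79.3, 95.4 and 78.99 FPKM in MUT. Of 19 actin and Arp2/3 transcripts, 6 were called lower and 1 higher (4 to 6 and 1 to 2 with 1 library left out, moved by WT 4), 3 and 1 of them under all 3 scalings. Actr2 and Arpc3, of the Arp2/3 complex that branches actin filaments, fell from 495, 525 and 527 FPKM to 214, 206 and 164 FPKM and from 85.7, 72.6 and 118 FPKM to 22.4, 16.5 and 38.02 FPKM. Of 70 olfactory receptor transcripts, 5 were called lower and 2 higher (1 to 4 and 2 to 4 with 1 library left out, moved by WT 4, WT 6, MUT 1, MUT 2 and MUT 3). Olfr513 was listed at 0 in every WT library but at 1.098, 4.15 and 1.24 FPKM in MUT, and Olfr1300-ps1 was at 37.4, 34.2 and 31.6 FPKM in WT and 19.4, 13.6 and 13.1 FPKM in MUT.

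**Figure D5:**
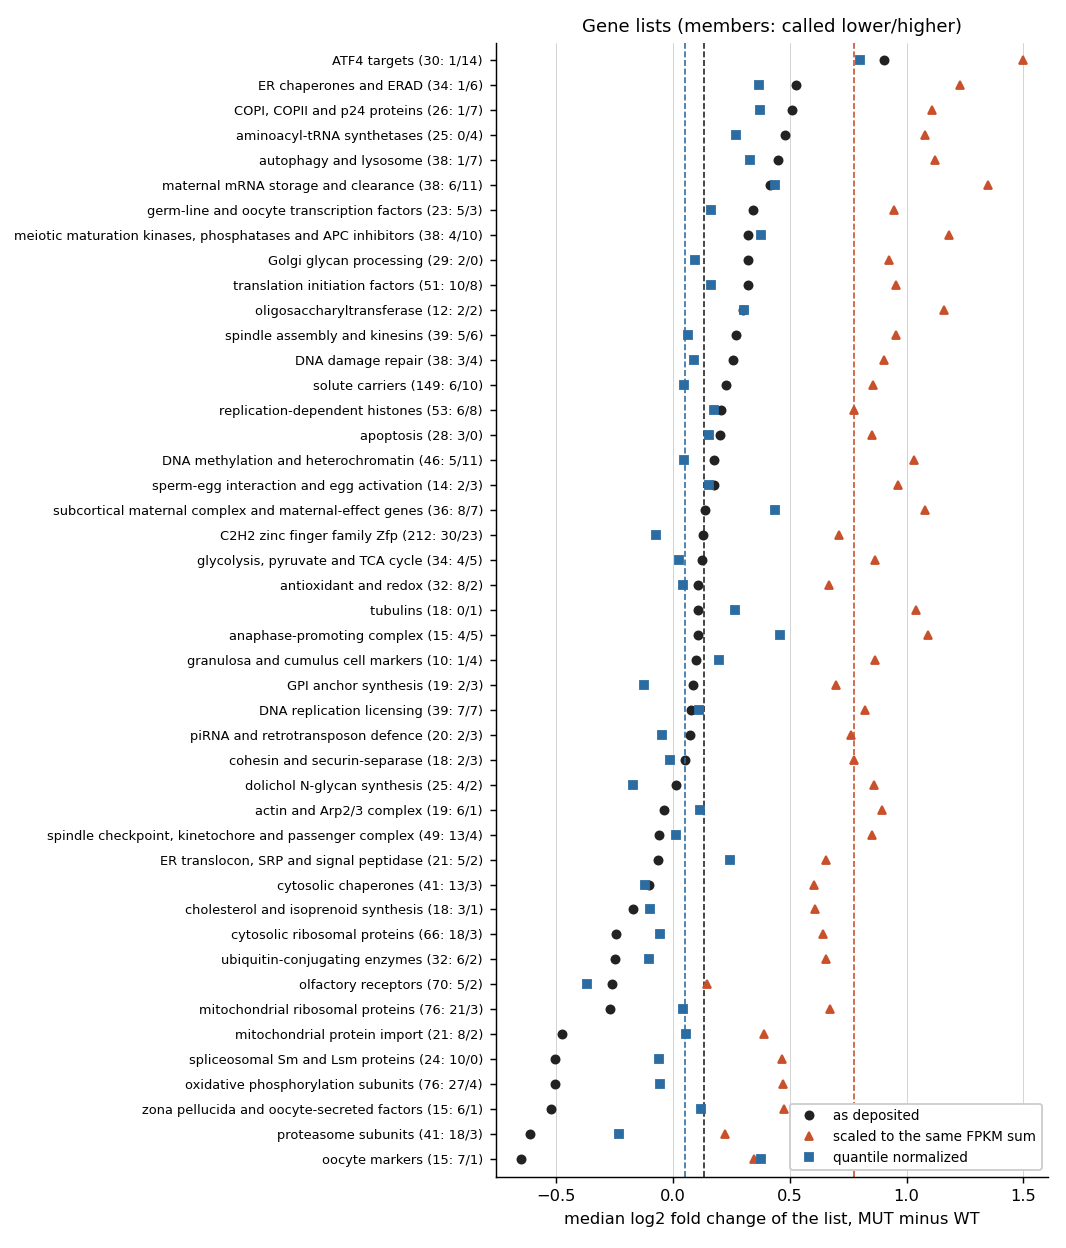
Median log2 fold change of MUT against WT (x axis) for each gene list with at least 10 measured transcripts (y axis, with the number measured and the numbers called lower and higher), as deposited (black), scaled to the same FPKM sum (orange) and quantile normalized (blue). Dashed lines are the medians of all 10525 transcripts at 0.13, 0.77 and 0.05. The ATF4 targets have the highest median as deposited and the oocyte markers the lowest.

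The 10 most abundant transcripts were all called lower as deposited. Obox2 was at 53924, 52453 and 51697 FPKM in WT and 18317, 16549 and 15856 FPKM in MUT, and Mphosph6, a nuclear exosome cofactor, was at 27102, 25478 and 26949 FPKM in WT and 7868, 7339 and 7959.9 FPKM in MUT. These and Obox5 were the ones lower under all 3 scalings, although the sign of Obox2 turned after a loess correction on abundance (0.11). Gm15698 (log2 fold change -1.02), Ubb, a ubiquitin gene (-1.03), and Tcl1, a co-activator of the kinase Akt (-1.08), had the opposite sign after quantile normalization (0.29, 0.50 and 0.32). Bcl2l10, an anti-apoptotic oocyte protein, had a log2 fold change of -0.87 as deposited, 0.12 with the same sum and 0.50 after quantile normalization. Obox1 and Omt2a had -1.64 and -1.27 as deposited and -0.09 and -0.14 after quantile normalization.

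As deposited, 128 transcripts had a 95% interval of the log2 fold change within -0.5 to 0.5. The most abundant of them were Rnaset2b, Cdk2ap2, Cox6a1, C86187, Sec61b and Hmgn1. Sec61b, a translocon subunit, was at 465, 413 and 515 FPKM in WT and 436, 563 and 553 FPKM in MUT, and Cox6a1, of cytochrome c oxidase, was at 718, 663 and 529.7 FPKM in WT and 665, 693 and 737 FPKM in MUT. Their log2 fold changes became 1.15 and 1.14 with the same sum and 1.01 and 1.02 after quantile normalization, so that equal FPKM values stood for a higher share of the MUT total. Actb, a usual reference for protein blots, was at 198, 173 and 164 FPKM in WT and 195, 202 and 189 FPKM in MUT (log2 fold change 0.13, limma adjusted p = 0.525). Rpl19, a usual reference for RT-PCR, was at 165, 179 and 250.3 FPKM in WT and 119.9, 112 and 87.4 FPKM in MUT, a log2 fold change of -0.88 ± 0.23 (SE, limma adjusted p = 0.01704) as deposited, 0.11 with the same sum and -0.33 after quantile normalization. The call of Rpl19 was lost when WT replicate 6 or MUT replicate 2 or 3 was left out (limma adjusted p up to 0.0946).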

How the data were processed

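RNA-Seq was performed by Smart-seq2 on 20 GV oocytes per library, with paired reads of 150 nt. Per the labels, the authors aligned the reads to mm10 with TopHat2 2.0.13 and computed FPKM with Cufflinks 2.2.1, and the processing notes also name Cuffnorm and Cuffdiff. The gene annotation and strand-specific counting are not given in the sources used here, so reads of overlapping, antisense and near-identical genes may be shared. FPKM values carry no absolute depth, which sets how low a level can be shown. The deposited table also holds, for each pair of groups, a log2 fold change, a p-value and a q-value that the authors computed (18 columns), and these were not used.

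All 4 groups (12 libraries) were fitted together on the log2(FPKM + 1) scale by limma (3.58.1, R 4.3.3), with a trend in the prior variance and 8 residual degrees of freedom, for the 11233 genes with at least 1 FPKM in at least 1 library. Adjusted p-values (Benjamini-Hochberg) cover these genes, and calls are at 0.05. A fold change on this scale understates the change of low transcripts. Scripts were tested on simulated data. Gene positions and lengths came from GRCm38 annotation (99.0% of tested genes with a length) and promoters from RefSeq. Of the symbols on 47 gene lists, 3 matched no gene.

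The members and lists were chosen with earlier results of these data known. Named genes were the 12 largest rises and falls described, the 10 most abundant transcripts, up to 2 called genes per list with the smallest adjusted p and the same sign under all scalings and after loess on abundance, all called genes of lists with at most 3, Rpl19 and Actb, called genes within 1 Mb of Dpagt1, and the 6 most abundant transcripts with a 95% interval of the log2 fold change within -0.5 to 0.5. A few genes named by this rule are not reported here. Clone names, Gm, Rik, pseudogene, Olfr and small RNA symbols were left out of the largest changes. Alternatives were other scalings, loess corrections on abundance or length, another pseudocount of 0.1, other filters, no variance trend, a fit of the 6 libraries alone and each library left out.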

Additional observations from a re-analysis of the deposited data

How the results depend on the processing

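No paired analysis was possible because WT replicates are numbered 4 to 6 and MUT replicates 1 to 3, so that the groups share no number. The number of transcripts called lower, 1269 as deposited, was 251 with the same FPKM sum, 720 after quantile normalization and 677 after loess on abundance. Of higher calls, 1063 as deposited, there were 4628 with the same FPKM sum, 638 after loess on abundance and 624 after loess on transcript length. At an adjusted p under 0.01, 828 were lower and 323 higher, with 98 and 148 under all 3 scalings, and 753 lower transcripts passed a fold change of 2. With 1 library left out, 926 to 1101 were lower and 523 to 840 higher. Without MUT 3, MUT 2 or MUT 1 the higher count was 523, 544 or 643, and under all 3 scalings it ran from 251 to 465 (251 without MUT 3, 258 without MUT 2 and 312 without MUT 1). The counts stayed within 1.5 times under median-of-ratios scaling (1295 and 1056), a pseudocount of 0.1 (1242 and 1066), a mean of at least 5 FPKM (1362 and 760), no filter (1164 and 885), no variance trend (1087 and 1085) and a fit of the 6 libraries (1329 and 806).

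The sign turned for 12 of 130 named genes. With the same FPKM sum the log2 fold change was 0.12 for Bcl2l10, 0.11 for Rpl19, 0.26 for Trappc4, 0.86 for Rnaset2b, 0.91 for Cdk2ap2 and 0.89 for Hmgn1. After quantile normalization it was 0.29 for Gm15698, 0.50 for Ubb, 0.32 for Tcl1, 0.50 for Bcl2l10, 0.75 for Rnaset2b, 0.82 for Cdk2ap2 and 0.73 for Hmgn1. After loess on abundance it was 0.11 for Obox2, 0.73 for Gm15698, 0.027 for Obox1, 0.60 for Ubb, 0.48 for Tcl1, 0.24 for Omt2a, 0.64 for Bcl2l10, 0.86 for Rnaset2b, 0.85 for Cdk2ap2 and 0.71 for Hmgn1. Of 122 named genes called as deposited, 101 were called in each of the 6 fits without a library. The cause of these shifts was not tested. The unequal value of 1 fragment limits the comparison of low transcripts.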

Other observations

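In the other groups of the series, as a description, Rpgrip1 was listed at 0.00338 to 0.565 FPKM in the oocytes of Dpagt1F/F Gdf9CRE/+ females (n = 3) and at 32.8 to 65.3 FPKM in those of Dpagt1F/F Amhr2CRE/+ females (n = 3). Canx was at 95.6 to 136.4 FPKM in the former and at 401.7 to 467.5 FPKM in the latter. Eif4ebp1 was at 2.71 to 4.26 FPKM and at 0 to 1.35 FPKM, respectively. The Dpagt1F/F Gdf9CRE/+ libraries are numbered 1 to 3, like MUT, and the Dpagt1F/F Amhr2CRE/+ libraries 4 to 6, like WT. Their FPKM sums ran from 482314 to 684212 and from 883256 to 1107925, respectively. The numbering thus splits these groups in the same way as their genotypes do. The part of a batch or of the unequal sums in these values was not tested.

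By chromosome, the share of transcripts called lower in MUT ran from 9.09% on chromosome 15 to 14.9% on chromosome 9, which carries Dpagt1. Close to the latter were the X chromosome (14.7%) and chromosomes 13 (14.5%) and 12 (14.4%). The share called higher ran from 6.40% on the X chromosome to 13.9% on chromosome 5.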
